A study of Saccharomyces cerevisiae with 64 samples.

Results

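In budding yeast held in hydroxyurea, 1208 of 12024 tiles of 1 kb carried new DNA in cells that overexpress RNR3 and carried little above background in control cells. These gained tiles were chosen by a mean BrdU signal of at least 0.25 in the RNR3 OE column and below 0.2 in its no OE (WT) control, in relative units. The tiles covered chromosomes I to XVI without overlap, and the ribosomal DNA array on chromosome XII was left out. Since the tiles were selected on both columns, their values there are a description and support nothing. The nearest origin peaks, the time course and the Fkh1 and Fkh2 strains come from other libraries that the choice did not use.

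The series measured newly made DNA of Saccharomyces cerevisiae by immunoprecipitation of the thymidine analogue bromodeoxyuridine (BrdU). A G1 block of 3 h at 25 °C (α-factor, 7.5 nM) and 2 h of 2% galactose came before the release into S phase. Hydroxyurea (HU) experiments lasted 60 min, with 0.2 M of the drug and BrdU at 400 µg/mL. The drug-free time course pulsed BrdU at 800 µg/mL from 20 to 35, 30 to 45 or 40 to 55 min. The RNR3 OE strain is labelled WT pGAP-RNR3, so RNR3 was driven by another promoter than the GAL promoter of the Fkh strains, and its control is labelled no OE (WT), with 2 immunoprecipitated libraries each. The HU experiment on Fkh1 and Fkh2 used WT cells with pGAL alone (no OE), pGAL-Fkh1 (Fkh1 OE) or pGAL-Fkh2 (Fkh2 OE), with 3 libraries each. The time course used no OE and Fkh1 OE cells with 2 libraries for each pulse. A double mutant lacking FKH1 and FKH2 in which ARS305 replaces ARS501 carried pGAL (DM) or pGAL-Fkh1 (DM Fkh1 OE), with 2 libraries each in HU. Labels name no clone for any strain, and whether replicates came from separate cultures is not stated.

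RNR3 encodes a large subunit of ribonucleotide reductase, the enzyme that makes the deoxynucleotides for DNA synthesis, and it is normally induced by DNA damage. HU inhibits this enzyme, and in yeast released into the drug the early origins fire while their forks slow close to the origin and late origins are held back by the checkpoint. The forkhead factors Fkh1 and Fkh2 bind near many early origins and are needed for their early firing.

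Each deposited column combined the libraries of its group, so every value below is 1 value per group, with unknown depth and without an SD, an n or a test. Differences are given as folds between columns, a fold of at least 2 is called, and no fold can be set against the spread between replicates. The 6500 tiles farther than 15 kb from any origin peak had a median signal of 0.156 in the control and 0.142 in RNR3 OE, so the RNR3 table has a high floor. Summed over all tiles, the RNR3 OE column held 1.16 times the control.

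The gained tiles had a median signal of 0.165 in the control, from 0.0251 to 0.200, which lies near the floor of that column. In RNR3 OE their median was 0.348, from the limit of 0.25 to 0.989. The median fold was 2.12, with 10th and 90th percentiles of 1.63 and 3.08. A fold of at least 2 was met by 713 of the 1208 tiles, against 7.74% of all tiles with a fold, and nothing is read from this because the rule used the contrast. None was at least 2-fold lower, against 0.137% of all tiles. Each column's own floor was subtracted, and tiles below it were set to 0. The gained tiles then held 48.2% of the summed RNR3 OE signal and 11.0% of the control's. They were 1208 of the 12024 tiles, so their share of the control was near their share of tiles. The 391 tiles with a control signal of at least 0.2, called origin core tiles here, held 28.1% and 48.3%. The remaining 86.7% of tiles held 23.7% and 40.7%. Their medians were 0.146 in RNR3 OE and 0.156 in the control, close to the floors. Both sums thus include many tiles near the floor, and nothing is read from these shares because the rule used both columns. Core tiles had medians of 0.258 in the control and 0.561 in RNR3 OE, and 12 of them were lower in RNR3 OE than in the control.

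**Figure D1:**
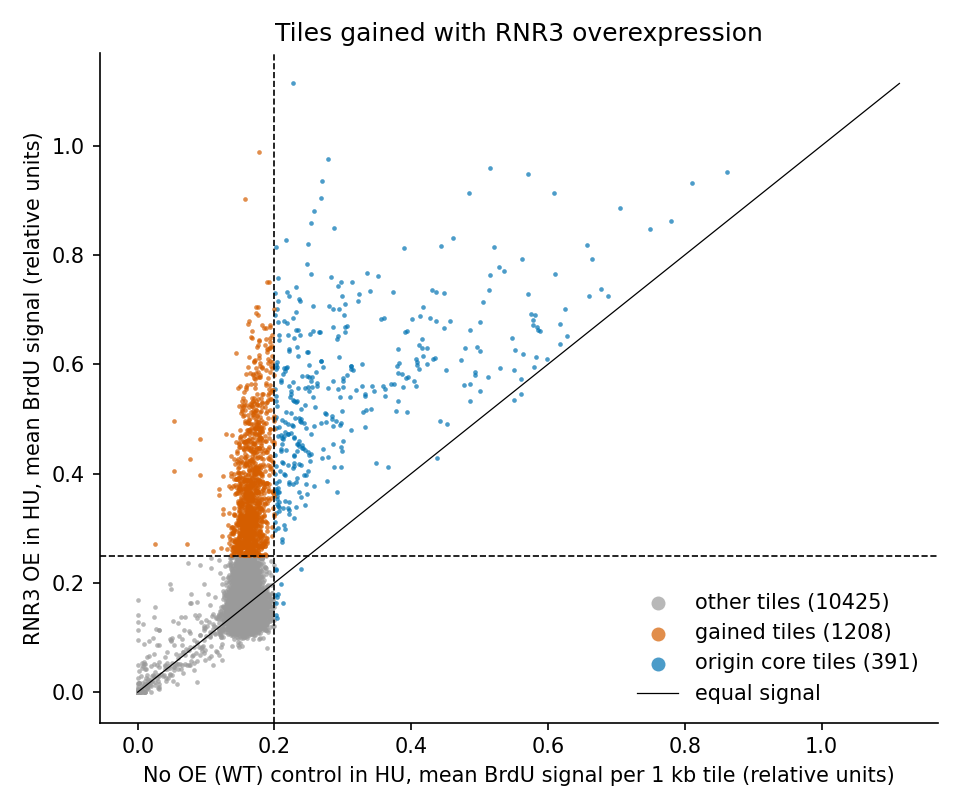
Mean BrdU signal of each of the 12024 tiles in the no OE (WT) control (x axis) and in RNR3 OE (y axis), both in HU and in relative units, with dashed lines at the limits of 0.2 and 0.25 that define the 1208 gained tiles. The gained tiles lie at 0.25 or above in RNR3 OE and near the floor of 0.156 in the control, while most of the 391 origin core tiles lie above the line of equal signal.

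Just inside the RNR3 OE limit lay 3 tiles with signals that round to 0.25, on chromosomes XI (213001 to 214000), II (416001 to 417000, in AAC3) and XV (313001 to 314000, in TOP1, which encodes topoisomerase I). Just outside lay tiles in NCA2, TPH3/CCT3 and HOT1, whose signals round to the same value. At the control limit, the tile in YBL086C (control 0.200, RNR3 OE 0.581) was inside. The tile over PHM7 and ATG34 (control 0.200, RNR3 OE 0.554) was outside. The limits thus cut through tiles of nearly equal signal.

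The gained tiles lay beside the origins that were active in HU in the other experiment. In the no OE column of the Fkh HU table, 73 strong peaks (at least 0.25 after a 1 kb running mean, at least 5 kb apart) were found. The gained tiles lay at a median of 6.65 kb from the nearest strong peak, with quartiles of 4.15 and 40.5 kb, where all tiles had a median of 67.3 kb. Of the gained tiles, 796 (65.9%) were within 10 kb of a strong peak, against 11.6% of all tiles. A further 401 (33.2%) were within 10 kb only of a weak peak, against 22.1% of all tiles, weak peaks being the 169 maxima from 0.0130, or 3 times the median tile, up to 0.25. No peak lay within 10 kb of the remaining 11.

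**Figure D2:**
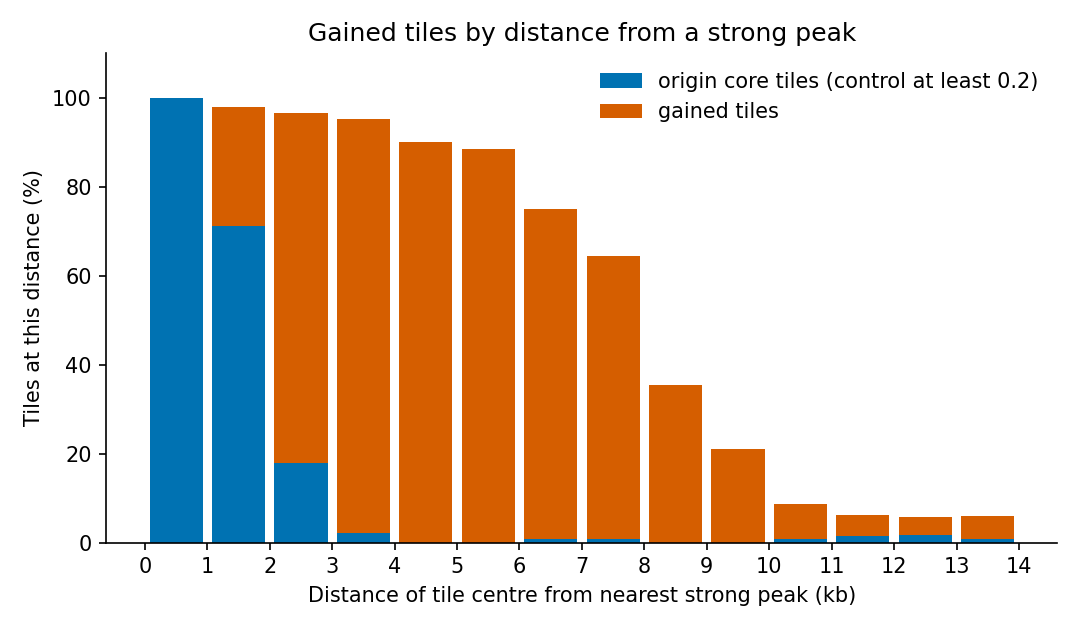
Share of the tiles at each distance from the nearest strong peak (x axis, kb, in steps of 1 kb) that were origin core tiles or gained tiles (y axis, percent). Gained tiles were 93.0% of the tiles at 3 to 4 kb and 7.81% at 10 to 11 kb, and all 146 tiles in the first kb were core tiles.

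The share of gained tiles rose and then fell with distance. None of the 146 tiles within 1 kb of a strong peak was gained, since all 146 had a control signal of at least 0.2. The share was 26.7% at 1 to 2 kb, 78.6% at 2 to 3 kb and 93.0% at 3 to 4 kb. It stayed at 90.1% at 4 to 5 kb and 88.5% at 5 to 6 kb, was 63.7% at 7 to 8 kb and reached 21.1% at 9 to 10 kb. Farther out it was between 3.07% and 7.81% in every step. Gained tiles thus thinned out toward 10 kb. That they began where the core tiles ended follows largely from the rule. The same control limit of 0.2 parts both sets, and 380 of the 391 core tiles were at 0.25 or above in RNR3 OE.

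All 73 strong peaks had gained tiles within 10 kb, and 71 had them on both sides. With each tile counted at its nearest strong peak, there were between 4 and 15 per peak with a median of 11. Of the 796 gained tiles near a strong peak, 395 (49.6%) lay on the side of higher coordinates. On the mean profile around the strong peaks, the control fell from 0.441 in the first kb to 0.176 at 2 to 3 kb and 0.153 at 4 to 5 kb. RNR3 OE was at 0.616, 0.509 and 0.396 at these distances, at 0.208 at 9 to 10 kb and at 0.147 at 13 to 14 kb, where the control was at 0.151. The profiles met there.

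**Figure D3:**
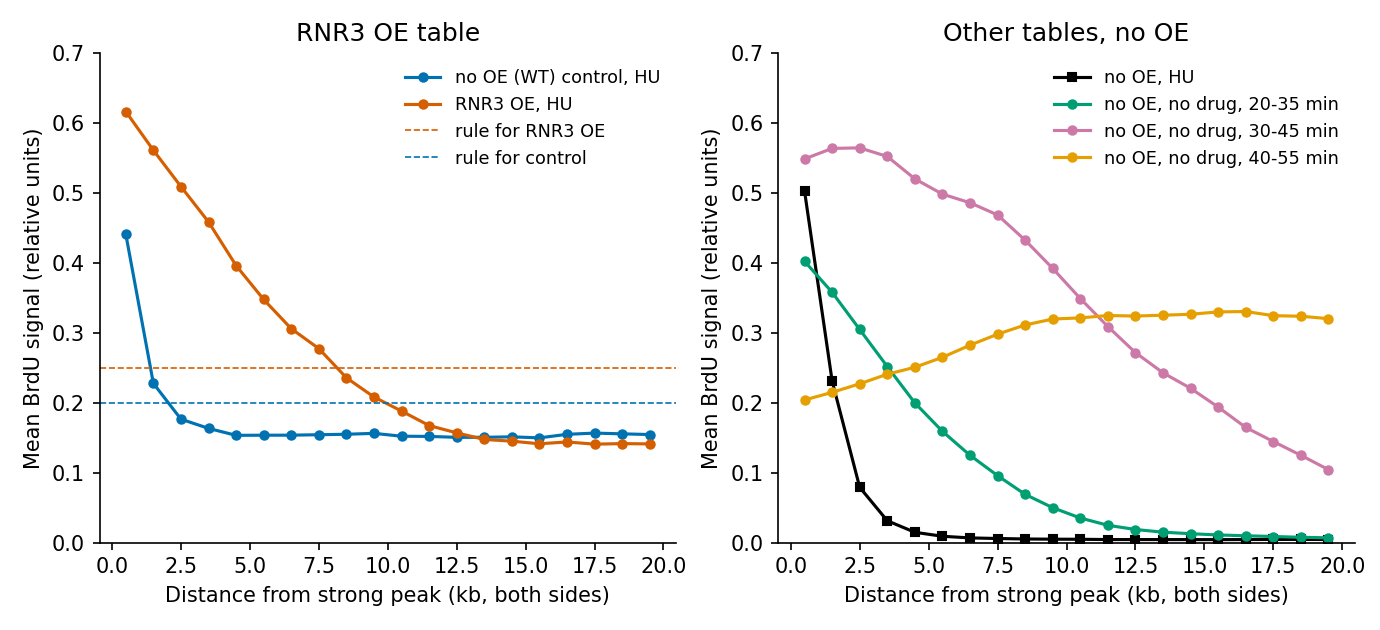
Mean BrdU signal (y axis, relative units) by distance from the 73 strong peaks (x axis, kb, both sides folded together), in the RNR3 OE table on the left and for no OE cells in the Fkh HU table and the time course on the right. In HU the no OE signal fell from 0.503 in the first kb to 0.0147 at 4 to 5 kb, while the 20 to 35 min pulse without drug fell from 0.402 to 0.200 and RNR3 OE in HU from 0.616 to 0.396.

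The reach of the signal was measured on the 93 peak sides with no other peak within 20 kb. As a 1 kb running mean, the control signal stayed at or above 0.2 for a median of 1.8 kb, from 0.8 to 3.6 kb. The RNR3 OE signal stayed at or above 0.25 for a median of 7.75 kb, with quartiles of 6.5 and 8.9 kb and a range from 0.8 to 12.25 kb. It was the longer of both on 92 of 93 sides. Among the 32 peaks with both sides free, the left and right reach differed by a median of 0.975 kb, and by at most 1 kb at 17.

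Taller peaks had a longer reach. Peaks with a height of 0.25 to 0.4 in the no OE HU column had a median RNR3 OE reach of 6.4 kb over 29 free sides, with quartiles of 5.65 and 6.8 kb. Those of 0.4 to 0.6 reached 7.6 kb over 17 sides, and those of 0.6 and above reached 8.55 kb over 47 sides, with quartiles of 7.95 and 9.5 kb. The control reach over the same groups was 1.55, 1.7 and 2.15 kb. Reach was read at a fixed level, and what part of the order that alone sets was not tested.

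**Figure D4:**
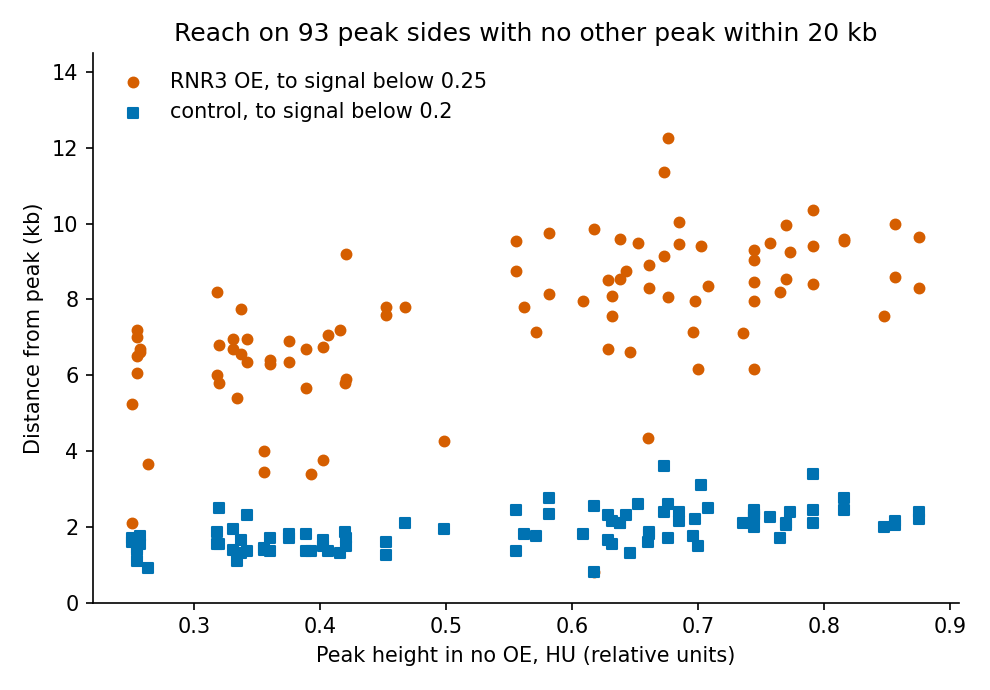
Distance from the peak (y axis, kb) to the point where the running mean fell below 0.25 in RNR3 OE (circles) or below 0.2 in the control (squares), against the height of the peak in no OE cells in HU (x axis, relative units), for 93 peak sides. The circles lie above the squares on 92 sides, and the side with a reach of 0.8 kb in both columns is the exception.

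Over all 146 sides, those with a closer neighbouring peak included, the RNR3 OE reach was under 3 kb on 6, and on 4 of them most of the next 40 bins of 50 bp held no signal in either column. The side with equal reach belonged to the peak at 183900 on chromosome XIII, which had no gained tile on its right, and there 37 of those 40 bins were at 0 in both columns. On the right of the peaks at 159750 on chromosome I, 136250 on VI and 842700 on XVI, 36 or 37 of the next 40 bins were at 0 in both. On the right of 1159300 on chromosome IV it was 18 of 40, and the RNR3 OE median over the 40 was 0.208. The left of the peak at 462550 on chromosome IV differed: it had no gained tile, no bin at 0, and medians of 0.179 in the control and 0.151 in RNR3 OE over those 2 kb.

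The tallest strong peak, at 74650 on chromosome III between FUS1 and AGP1, shows the pattern tile by tile. Its 5 core tiles, from 72001 to 77000, had control signals of 0.218, 0.340, 0.561, 0.379 and 0.221, and RNR3 OE signals of 0.675, 0.734, 0.545, 0.597 and 0.561. The central tile was thus slightly lower with RNR3 OE and its neighbours were higher. On the left, 7 gained tiles ran down to 65001, through RNQ1, BIK1 and HIS4, a gene of histidine synthesis. Going outward, their RNR3 OE signals were 0.580, 0.441, 0.526, 0.427, 0.304, 0.321 and 0.291, against control signals between 0.141 and 0.179. On the right, 6 gained tiles ran from AGP1, an amino acid permease, into KCC4, a septin-linked kinase. Outward, their RNR3 OE signals were 0.594, 0.704, 0.418, 0.523, 0.471 and 0.377. The next tile, from 83001, dropped to 0.175, so that the edge was steeper on the right.

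The gained tiles formed 309 runs of adjacent tiles with a median of 4, and 62 runs were single tiles. Runs that touched a core tile numbered 237 and held 1076 gained tiles (89.1%), and 13 runs filled the whole gap between core tiles. This contact is largely set by the control limit that parts both sets. The longest had 13 tiles, on chromosome II from 240001 to 253000, between strong peaks at 237350 and 254500. It covers NTH2, RER2, COQ1, GPI18, RCR1, UGA2, DSF2 and FLR1. Its RNR3 OE signal fell from 0.522 at the left end to 0.302 at 244001 and rose to 0.586 at the right end, while the control ranged from 0.137 to 0.193. The lowest gained signal thus lay between both strong peaks, and it stayed well above the floor of 0.142. A weak peak at 246750, with a height of 0.0193 in no OE cells in HU, also lay inside this run.

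The next runs were 12 tiles on chromosome XIV (547001 to 559000, with BOP3, COG6, BDP1 and IDH1), 10 on VI (170001 to 180000, with IOC3, CMK1, GSY1 and AIP5) and 10 on X (444001 to 454000, with SAG1, APL1, POL31, SUI2 and TDH2). The RNR3 OE signal in these ranged from 0.289 to 0.902, from 0.276 to 0.622 and from 0.259 to 0.485. Runs of 8 tiles tied for the next place and are not listed.

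The 10 tiles with the largest difference between RNR3 OE and control all lay 2.45 to 4.80 kb from a strong peak. The largest was at 170001 on chromosome V in SEC3, an exocyst subunit, with 0.177 in the control and 0.989 in RNR3 OE. The second was at 556001 on chromosome XIV in BDP1, a subunit of the RNA polymerase III factor TFIIIB, with 0.157 and 0.902. The others went to 0.674 to 0.750 from 0.161 to 0.191. They overlapped PSD2 (phosphatidylserine decarboxylase), MRPL13 and MEH1, CTR86 and PWP2, PRM6, GSF2, the tRNA gene SUF1 with INO4 (an activator of phospholipid genes), SPT7 (a SAGA subunit) and a stretch at 78001 on chromosome III with no gene. In the 20 to 35 min pulse these 10 tiles had between 0.149 and 0.403, so the SEC3 and BDP1 tiles, at 0.292 and 0.272, did not stand out there.

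Around weak peaks the gained tiles had lower RNR3 OE signals. The 401 tiles near only a weak peak had a median of 0.2996, with a 90th percentile of 0.399. The 796 near a strong peak had 0.382 and 0.553. Each gained tile within 10 kb of a peak was then counted once, at the nearest peak of either kind. Of the 169 weak peaks, 103 were the nearest peak of a gained tile in this count, and the share followed their height. It was 33.8% of 80 peaks below 0.025, 74.1% of 27 from 0.025 to 0.05, 87.5% of 24 from 0.05 to 0.1 and 92.1% of 38 from 0.1 to 0.25. In this class 65 of 401 tiles were within 1 kb of the peak itself, a place that is core at every strong peak.

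The gained tiles farthest from a strong peak, at 477 to 482 kb, were 5 tiles on chromosome XVI between 71001 and 77000. They overlapped VIK1 (a kinesin partner), ATG41, RPL36B and GYP5, and lay 0.749 to 3.25 kb from a weak peak. Their control signals were 0.1498 to 0.181 and their RNR3 OE signals 0.271 to 0.395. In the 20 to 35 min pulse they had 0.0581 to 0.0910 without OE and 0.252 to 0.340 with Fkh1 OE. The 11 tiles with no peak within 10 kb, named here after their values were seen, were in or over HO, GIN4 (2 tiles), AIP5 (2), NNF2, PMT6 (2, one shared with ELP2), UBP12/ELO1, HIR3 and YOR296W/TIM18. Their RNR3 OE signals were 0.251 to 0.335. Of these, 5 lay 10.4 to 11.9 kb from a strong peak, just beyond the 10 kb line.

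Part of the gained tiles already carried some signal in no OE cells in HU in the other table, whose floor is low. Their median there was 0.0127, against 0.00432 for all tiles. At least 3 times that median was met by 597 gained tiles (49.4%), against 9.21% of all tiles. By distance, the gained tiles' median fell from 0.102 at 1 to 2 kb to 0.0143 at 4 to 5 kb and 0.00593 at 8 to 9 kb. In RNR3 OE, the medians at the same distances were 0.441, 0.416 and 0.297. The tail of the no OE peak thus reached the inner tiles, and the outer ones were close to the median of all tiles.

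In cells without drug, the gained tiles carried label early. In no OE cells their median signal was 0.142 at 20 to 35 min, 0.489 at 30 to 45 min and 0.277 at 40 to 55 min. All tiles had 0.00845, 0.0659 and 0.239, so the gained tiles stood at 16.8, 7.42 and 1.16 times these medians. The pulse of highest signal was 30 to 45 min for 1132 of 1208 (93.7%), 40 to 55 min for 76 and 20 to 35 min for none. Over all tiles with signal, the highest pulse was 40 to 55 min for 82.3% and 30 to 45 min for 17.7%. The tiles beside them had it at 30 to 45 min as well, with 94.9% of the core tiles and 83.3% of the ungained tiles within 10 kb of a strong peak. Near a strong peak 795 of 796 gained tiles had their highest pulse at 30 to 45 min, and near only a weak peak 333 of 401 had.

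**Figure D5:**
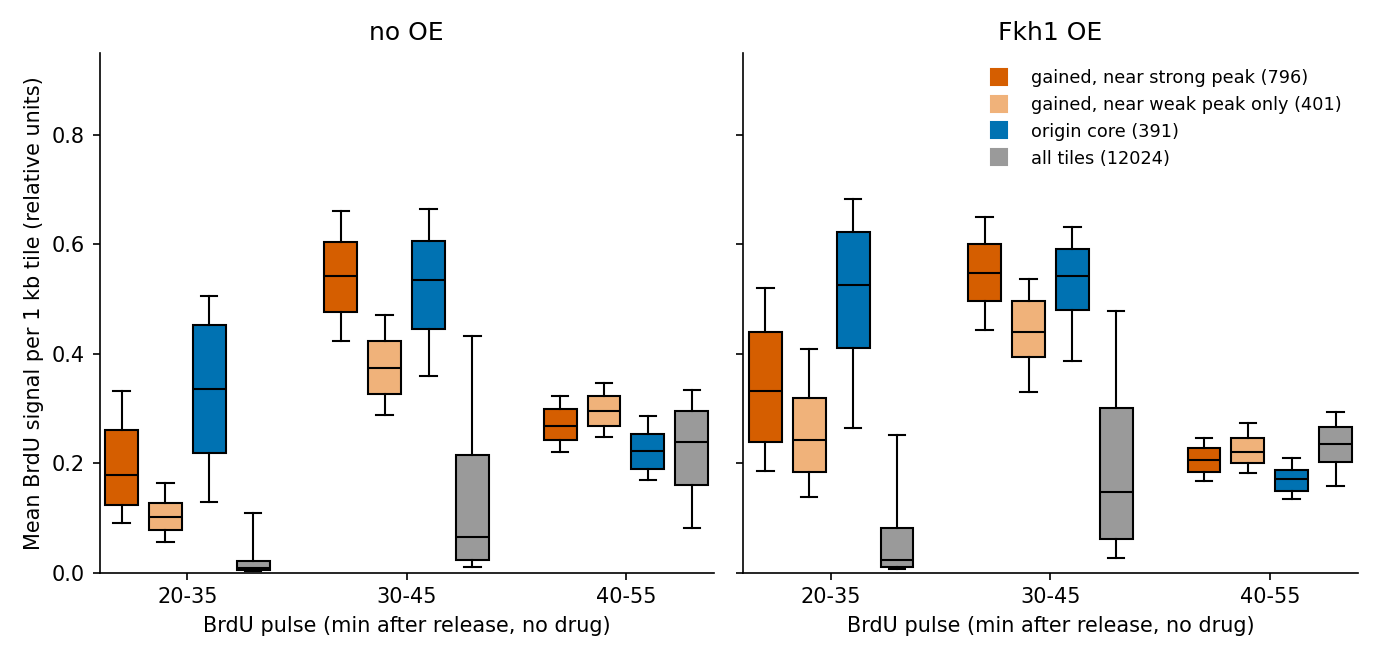
Mean BrdU signal per tile (y axis, relative units) in each pulse (x axis, min after release without drug) in both strains, no OE and Fkh1 OE, with boxes at the quartiles, a line at the median and whiskers from the 10th to the 90th percentile of tiles. At 20 to 35 min without OE the medians are 0.179 for gained tiles near a strong peak, 0.101 near only a weak peak, 0.337 for core tiles with signal and 0.00845 for all tiles.

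Distance ordered the gained tiles in the first pulse as well. At 2 to 3 kb from a strong peak their median at 20 to 35 min was 0.282, at 5 to 6 kb 0.172 and at 9 to 10 kb 0.0760. At 40 to 55 min the order was turned around, with 0.236, 0.276 and 0.322. At 30 to 45 min they were at 0.568, 0.533 and 0.489. The inner gained tiles were thus higher in the first pulse and the outer ones in the last.

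Most gained tiles were among the tiles of highest signal in the first pulse without drug. In all, 1588 tiles had an RNR3 OE signal of at least 0.25, gained and core together. Among the 1588 tiles of highest signal in the no OE 20 to 35 min pulse were 1078 gained tiles (89.2%), against 13.2% of all tiles. The equal number of highest tiles held 972 gained tiles at 30 to 45 min and 171 at 40 to 55 min, and 831 for no OE in HU. Neighbouring tiles share a peak and DNA fragments, so these are not independent points.

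Most of the exceptions lay close to the RNR3 OE limit. The 130 gained tiles outside the highest 1588 of the 20 to 35 min pulse had a median RNR3 OE signal of 0.268. Of these, 104 were below 0.3, and the highest was at 0.496. By place, 33 were near a strong peak, 86 near only a weak one and 11 near none. In the other direction, 132 tiles of the highest 1588 had RNR3 OE below 0.25, with a median of 0.232. Among them, 117 were at 0.2 or above, and the lowest was at 0.128.

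In HU, Fkh1 OE gave few calls among the gained tiles near strong peaks and more among those near weak peaks. The median fold of Fkh1 OE over no OE in HU was 1.30 over 1207 gained tiles, against 1.37 over all tiles. A rise of at least 2-fold was seen in 171 (14.2%), against 11.5% of all tiles, so the share was near the background, and at 1.5-fold it was 31.7% against 34.8%. In the other direction, 5 (0.414%) were at least 2-fold lower, against 0.634%. By class, 15 of 795 tiles near a strong peak (1.89%) and 150 of 401 near only a weak peak (37.4%) were 2-fold higher. For all tiles in those surroundings the shares were 2.72% and 21.4%. Within 1 kb of a weak peak, 37 of 65 gained tiles (56.9%) were past it, against 130 of 298 (43.6%) of all tiles there. Scaling the Fkh1 OE column to the no OE total multiplies every fold by 0.717 and turns the median of gained tiles to 0.929.

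The 5 gained tiles with the highest fold of Fkh1 OE in HU were far from strong peaks, at 137 to 264 kb. The tile over YOR296W and TIM18 (a mitochondrial import subunit) on chromosome XV went from 0.00918 to 0.245, or 26.7-fold. The tile in NNF2 went from 0.0102 to 0.213, or 20.8-fold. The tile over MKK2 (a kinase of the cell wall integrity pathway) and UME1 went from 0.0270 to 0.543, or 20.1-fold. The tiles over UBP12 and ELO1 and in YVC1, a vacuolar cation channel, rose 17.2-fold and 14.6-fold. With RNR3 OE these 5 tiles had only 0.259 to 0.312, so the tiles that gained most with Fkh1 were among the weaker ones with RNR3. A signal of at least 0.25 in HU was seen in 15 gained tiles with Fkh1 OE (1.24%), against 2.15% of all tiles, and 13 of the 15 were below 0.1 without OE. With Fkh2 OE none reached it, against 0.607% of all tiles. The shares over all tiles include the core tiles, which the rule kept out of the gained tiles. Outside the core, the highest Fkh2 OE signal was 0.181 in a gained tile and 0.157 in an ungained one. These shares are thus partly set by the rule, and nothing is read from them.

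The 5 gained tiles with the lowest Fkh1 OE fold, 0.156 to 0.391, lay at 563001 and 564001 on chromosome XIV, and within 3 kb of a chromosome end in YEL077C (2 tiles) and YHL050C, members of the subtelomeric Y' helicase family, which has near-identical copies. The pair on chromosome XIV, with control signals of 0.0907 and 0.0529 and with 0 in both double mutant columns, was also low in the time course. With 5 others, among them tiles in HXT6, a hexose transporter with a close paralog, and in the Ty element YAR009C, they make 7 gained tiles with a control signal below 0.1. The assignment of reads from repeats is a step not given in the sources used here. These 7 values are uncertain.

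Fkh2 OE was compared with the same no OE column as Fkh1 OE, so both comparisons share their control. As deposited, the median fold of Fkh2 OE over no OE in HU was 0.696 over the gained tiles and 1.03 over all tiles. A fall of at least 2-fold was seen in 312 (25.8%), against 5.36% of all tiles, and a rise in 22 (1.82%), against 2.28%. Near a strong peak 28.6% of gained tiles fell at least 2-fold, with a median fold of 0.665. All tiles there had 31.7% and 0.668, so the gained ones were near their surroundings. Near only a weak peak the gained tiles had 21.2% and 0.751, and all tiles of that class had 6.58% and 1.01. The no OE medians of these 2 sets differed, at 0.0136 and 0.00490, and the lower one was close to that of all tiles. Within 1 kb of a weak peak, 21.5% of gained tiles fell at least 2-fold, with a median fold of 0.873. All tiles there had 18.8% and 0.934, so the difference was smaller. Core tiles had a median fold of 0.451, so gained tiles lay between them and the rest. Scaled to the no OE total, which multiplies every fold by 1.54, the gained tiles' median was 1.07, so its direction depends on the scaling.

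In the time course with Fkh1 OE, the median signal of gained tiles was 0.293 at 20 to 35 min, 0.514 at 30 to 45 min and 0.211 at 40 to 55 min. The median folds over no OE were 1.91, 1.05 and 0.763, against 2.32, 1.85 and 0.995 over all tiles. At least 2-fold higher were 523 gained tiles (43.4%) at 20 to 35 min, against 60.8% of all tiles, and 2 were 2-fold lower, against 0.164%. At 30 to 45 min 5 (0.414%) were higher, against 45.3%, and 0 lower, against 0.112%. At 40 to 55 min 0 were higher, against 9.42%, and 1 lower, against 0.0771%. At 20 to 35 min the order of these shares depends on the fold chosen, since 86.1% of gained tiles and 80.7% of all tiles were at least 1.5-fold higher. At 40 to 55 min only 6 of 1208 gained tiles had a fold above 1. When each Fkh1 OE column was scaled to the no OE total of its pulse, the medians were 0.894, 0.768 and 0.750, all below 1.

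The highest pulse of gained tiles with Fkh1 OE was 30 to 45 min for 1174, 20 to 35 min for 22 (1.82%) and 40 to 55 min for 12. Over all tiles with signal these pulses had 30.2%, 1.53% and 68.3%. Of the core tiles with signal, 153 of 390 had it at 20 to 35 min with Fkh1 OE and 6 of 390 without. Near only a weak peak the gained tiles had a median fold of 2.44 at 20 to 35 min, and 291 of 400 (72.8%) were past 2-fold. All tiles in that class had 2.77 and 75.6%. Near a strong peak the fold was 1.79, with 224 of 795 (28.2%) past 2-fold, and all tiles there had 1.78 and 31.7%. At 20 to 35 min the gained tiles of both classes were thus near the values of their surroundings. At 30 to 45 min this held near a strong peak, with median folds of 1.004 for gained tiles and 1.011 for all tiles there. Near only a weak peak the gained tiles were lower in that pulse, with a median fold of 1.18 and 1 of 400 past 2-fold. All tiles in that class had 1.41 and 559 of 2540. The no OE medians of these 2 sets differed, at 0.374 and 0.202.

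In the double mutant, gained tiles could be measured on 14 chromosomes, since chromosomes III and V have another length in that table. Their median signal in HU was 0.0254 in DM and 0.0173 in DM Fkh1 OE, where it was 3.25 and 2.98 times the median of all tiles. The median fold was 0.734 over 1049 tiles, against 0.713 over all tiles. At least 2-fold higher were 96 (9.15%), against 4.44% of all tiles, and 367 (35.0%) were at least 2-fold lower, against 28.7%. Near a strong peak 8.63% of gained tiles were higher and 39.3% lower, against 14.4% and 36.5% of all tiles there. Near only a weak peak these were 9.84% and 27.3%, against 6.27% and 31.5%. The order of the shares thus depends on the surroundings, and no other scaling was run for this pair of columns. Core tiles had a median fold of 1.31, with 129 of 337 past 2-fold higher.

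The gained tiles were spread over all 16 chromosomes, and their share was highest on chromosome III (72 of 316 tiles, 22.8%) and lowest on IV (95 of 1531, 6.21%). Chromosome III has 5 of the strong peaks and chromosome IV has 6. Within 20 kb of a chromosome end lay 14 gained tiles (1.16%), against 5.26% of all tiles. Tiles at 0 in both columns of the RNR3 table, 278 in number, could not be gained. How many of these lay near chromosome ends was not counted, so nothing is read from the lower share. Coding sequence made up 69.8% of the gained tiles, 58.2% of core tiles and 73.0% of all tiles, so the gained tiles were closer to the genome than to the origins, which mostly lie between genes. A tRNA gene, a known site of fork pausing, lay in 72 gained tiles (5.96%), against 2.49% of all tiles and 5.90% of all tiles within 10 kb of a strong peak. Of the coding bases in gained tiles near a strong peak, 52.6% were transcribed away from it, against 50.2% in all tiles there. In the authors' deposited table, the genes in gained tiles had a median of 51.2 FPKM in G1-arrested no OE cells over 728 entries, where all entries in tiles had 51.7 over 6859.

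The overexpressed gene itself was not in a gained tile. Over RNR3 (chromosome IX, 238099 to 240708) the signal was 0.163 in the control and 0.147 in RNR3 OE. None of the tiles over RNR1, RNR2 and RNR4, the other reductase subunits, or over SML1, DUN1, HUG1, DIF1 and WTM1, which act on reductase or its regulation, was gained. RFX1, which encodes the repressor of the RNR genes, was the exception among these 10 genes, with 4 gained tiles over its locus (chromosome XII, 507797 to 510232), 0.165 in the control and 0.363 in RNR3 OE. This locus lies beside a weak peak at 513150, which had 11 gained tiles. Its height of 0.248 in no OE cells in HU was just below the strong limit of 0.25. Of all 12024 tiles 1208 were gained, so nothing is read from 1 such gene among 10. RNA of RNR3 OE cells was not analysed here, so the level of the transgene is not known.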

How the data were processed

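The deposited BrdU tables hold 1 signal value per 50 bp bin and group in 13 columns of 4 tables, in relative units made by the authors. Any combining, smoothing or Input scaling of libraries remains not given in the sources used here. Single-library columns were not used. Per the submitters' processing notes, Bowtie2, SAMtools, bedtools and build R64 were used for the series, with TopHat2, Cufflinks and Cuffdiff named as well. FPKM values of the RNA table are those the authors deposited. Depth per sample is unknown. The number of columns that matched no group was 0.

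Means over 1 kb tiles, peaks (1 kb running mean, at least 5 kb apart), runs and folds without a pseudocount were computed with Python 3.11.15, numpy 2.4.6 and pandas 2.3.3, and figures with matplotlib 3.10.9. Tiles at 0 in either column got no fold. Recovery of planted peaks and tiles was tested on simulated data. Planned tests across replicates could not be run on 1 column per group. Genes came from the RefSeq R64 gene table. The members, lists and thresholds were chosen with earlier results of these data known. Named tiles are the 10 of largest difference, the 3 nearest each limit on each side, the 5 farthest from a strong peak, the 5 of highest and 5 of lowest Fkh1 OE fold in HU and the longest runs, and the rest was named after its values were seen. Alternatives changed the limits, tiles, peaks, scaling and pseudocount.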

Additional observations from a re-analysis of the deposited data

Results flagged for a closer look

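The Fkh1 OE effect on the gained tiles had opposite directions in the first and the last pulse of the time course. The median fold over no OE was 1.91 at 20 to 35 min and 0.763 at 40 to 55 min. With 1 column per group, the difference between the pulses was not tested. Scaled to the no OE total of each pulse, both medians were below 1, at 0.894 and 0.750.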

How the results depend on the processing

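The number of gained tiles was 1208 and became 183 with a control limit of 0.15, 2427 with tiles of 500 bp and 593 with tiles of 2 kb. The last pair follows from the number of tiles. The limit of 0.15 lies below the control's floor of 0.156 and its median of 0.157 over all tiles, so it leaves out most tiles at the floor. The number of gained tiles was 847 with an RNR3 OE limit of 0.3 and 919 with the RNR3 OE column scaled to the control total. It was 1427 with that column scaled to the control's floor, an alternative chosen after seeing the data. The median distance to a strong peak moved to 12.2 kb with the 45 strong peaks of at least 0.5 and was between 5.25 and 7.45 kb under the other alternatives. The share of gained tiles within 10 kb of a strong peak, 65.9% as reported, was lowest at 45.1% with those 45 peaks. It was highest at 80.8% with strong peaks called in the control column of the RNR3 table. Scaling each column to the no OE total reversed 4 median folds of gained tiles, to 0.929 for Fkh1 OE and 1.07 for Fkh2 OE in HU, and to 0.894 at 20 to 35 min and 0.768 at 30 to 45 min for Fkh1 OE. Of 90 values under alternatives, 82 kept their direction and stayed within 1.5 times the value reported. At 1.5-fold instead of 2-fold, Fkh1 OE calls among gained tiles went from 171 to 383 in HU and from 523 to 1038 at 20 to 35 min, and both changed sides of the share of all tiles (31.7% against 34.8% and 86.1% against 80.7% at 1.5-fold). Leaving out each replicate was not run, because each group has 1 column. No paired analysis was possible because the columns carry no replicate numbers. No depth is known, so no limit on detection can be given.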
